A study of Mus musculus with 6 samples.

Results

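Leukemia inhibitory factor (Lif), oncostatin M (Osm) and the receptor chains Il6st, Il6ra, Il27ra, Lifr, Osmr, Il12rb1 and Il12rb2 were followed in mouse CD8+ T cells, the killer lymphocytes of the immune system. The 9 genes were taken by name as a receptor family with its T cell ligands. Lif also stood among them because it was seen to be higher in 1 of the conditions, so its difference between conditions is described here and not tested. Of the 9, 7 had a row in the deposited table of 14481 genes, and all 7 were among the 14319 genes tested. Lifr and Osmr had no row and were not analysed here.

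Cytokine receptors of this family work through shared chains. Il6st encodes gp130, the signalling chain used by interleukin 6, interleukin 27, LIF and oncostatin M, and each cytokine adds its own partner chain. The partner is IL6RA for interleukin 6, IL27RA for interleukin 27, LIFR for LIF and, in the mouse, mainly OSMR for oncostatin M. IL12RB2 is a relative of gp130 that joins IL12RB1 to form the receptor for interleukin 12, and IL12RB1 also serves interleukin 23. Signals from gp130 run through JAK kinases mostly to STAT3, and those from the interleukin 12 receptor to STAT4, which drives interferon gamma in T cells.

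The libraries came from sorted wild-type CD8+ T cells that had been activated on anti-CD3 (1 µg/ml) with interleukin 2 (0.1 µg/ml) and soluble anti-CD28 (1 µg/ml). Conditioned medium (CM) was added on day 1, and RNA was taken on day 3 after 2 days with it. The medium came from cultures named astrospheres, either pSTAT3+ or pSTAT3-, where pSTAT3 is the phosphorylated form of the transcription factor STAT3. There were 3 libraries with STAT3+ CM and 3 with STAT3- CM, and the labels do not say whether replicates were separate mice or cultures. The STAT3 label thus describes the cells that made the medium, and not the T cells. The content of the medium and T cells that received no CM were not analysed here.

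Total counts per library lay between 43346089 and 53630514. The 7 markers of CD8 T cells were all present, with a summed level of 2425 to 3158 CPM in STAT3+ CM and 2402 to 2630 CPM in STAT3- CM. These sums overlapped, but all 7 markers had a positive log2 fold change, beside 50.2% of all genes. CPM values, read counts scaled to a common library size, take each library's total and its TMM factor into account. Over all genes the libraries overlapped between the media on both leading principal components: STAT3+ CM replicate 1 lay farthest out on the second principal component (31.1% of the variance) and STAT3- CM replicate 3 on the first (36.8%). Log2 fold changes are given as STAT3+ CM minus STAT3- CM with their standard error (SE).

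The promoters of Lif and Il12rb2 are shown because Lif was the member whose groups did not overlap and Il12rb2 the member whose libraries differed most. Each run gives the 250 bases before the gene start, 5′ to 3′, from RefSeq on build GRCm38.p6. Lif lies on the plus strand at chr11:4257318-4257567 and Il12rb2 on the minus strand at chr6:67376189-67376438. Capitals mark an AP-1 motif in Lif and a STAT motif in Il12rb2.
Lif: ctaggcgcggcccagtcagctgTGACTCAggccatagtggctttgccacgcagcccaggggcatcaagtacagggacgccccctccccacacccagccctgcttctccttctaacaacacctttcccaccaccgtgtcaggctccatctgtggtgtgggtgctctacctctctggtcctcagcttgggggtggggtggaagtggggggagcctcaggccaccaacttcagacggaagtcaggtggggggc
Il12rb2: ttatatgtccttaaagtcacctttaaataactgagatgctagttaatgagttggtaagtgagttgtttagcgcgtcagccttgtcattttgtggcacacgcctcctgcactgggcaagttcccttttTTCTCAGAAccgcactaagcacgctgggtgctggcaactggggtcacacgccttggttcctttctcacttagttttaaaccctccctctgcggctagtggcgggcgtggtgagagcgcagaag

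The AP-1 motif searched was TGANTCA, the site of the Fos and Jun factors that T cell activation switches on, and Lif held it at positions -228 to -222 from the gene start. It was in 6.75% of the 32851 promoter windows of the same length. The STAT motif was TTCNNNGAA, found in Il12rb2 at positions -123 to -115 and in 7.02% of the windows. The short NFAT core GGAAA stood in Lif, Il6st and Osmr, and in 55.6% of all windows. Of the other motifs searched, AGGTGTGA (T-box), TGACGTCA (CRE) and TATAAA were in 1.12%, 1.55% and 12.4% of the windows and in no member's. All motifs were read on both strands, and 6 of the 9 members had a window. A match describes the letters of the window and does not show that a factor binds there.

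Lif, the ligand that signals through LIFR and gp130, had the clearest pattern of the 7. It stood at 94.9, 94.3 and 98.4 CPM in STAT3+ CM, against 54.0, 60.5 and 46.6 CPM in STAT3- CM. Every STAT3+ CM library therefore lay above every STAT3- CM library, and the STAT3+ CM values lay close together. The group means were 95.9 ± 2.23 CPM in STAT3+ CM and 53.7 ± 6.98 CPM in STAT3- CM (SD, n = 3 each), with a log2 fold change of 0.84 (SE 0.13). These counts were deep, from 3928 to 5452 reads in STAT3+ CM and from 2150 to 2842 reads in STAT3- CM. In polyadenylated RNA of whole cultures, more cells making Lif and more Lif RNA per cell cannot be told apart.

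Lif was the 1 member of 7 whose groups did not overlap. Of all genes tested, 7.95% had groups that did not overlap in either direction, and 3.78% had STAT3+ CM above. At an adjusted p of 0.05 (Benjamini-Hochberg), the quasi-likelihood test of edgeR called 0 of 14319 genes (0%), and hence no member. At an unadjusted p under 0.05 stood 521 genes, or 3.64%. DESeq2 called 48 genes (0.335%) and limma-voom with sample quality weights 14 (0.0978%). Lif was the 1 member in each of those sets of calls, but it was picked for this very difference and the calls add nothing to it. Limma-voom without weights called 0 genes.

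**Figure D1:**
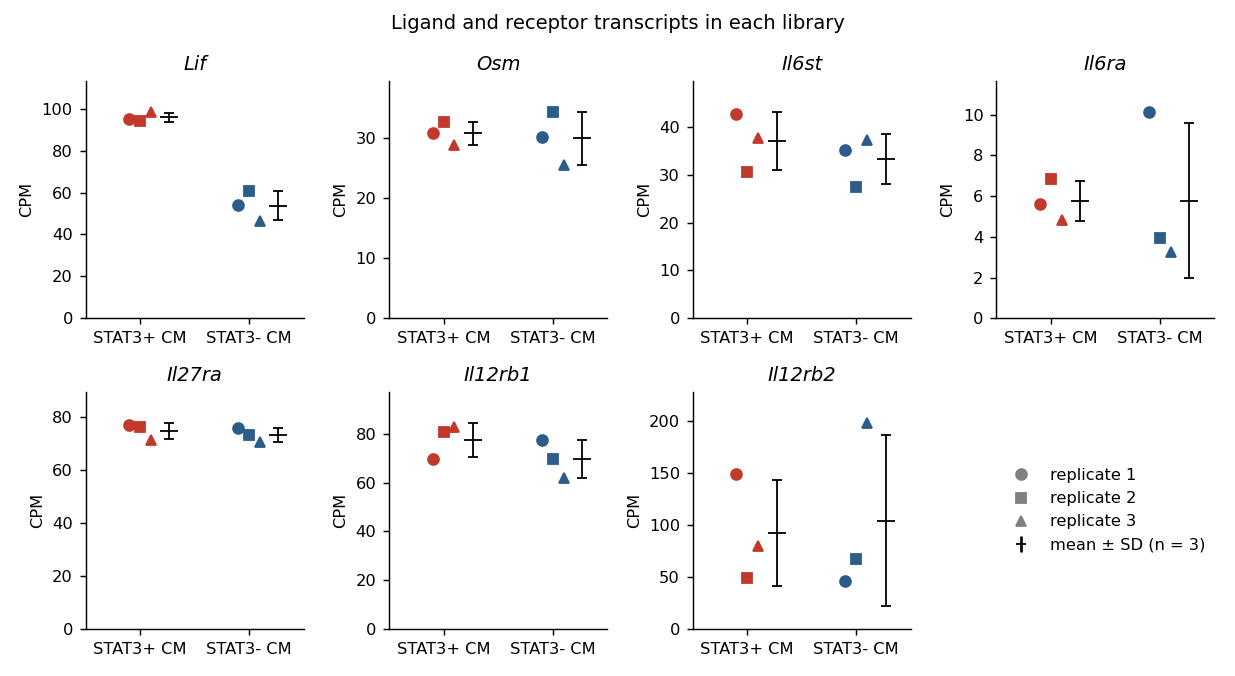
CPM (y axis, from 0) of the 7 measured genes in the 3 STAT3+ CM and 3 STAT3- CM libraries, with marker shapes for replicates and the mean ± SD beside them. Lif is the gene whose groups do not overlap, Il12rb2 spans 46.3 to 199 CPM, and Il27ra stays between 70.4 and 76.7 CPM.

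Osm, a related ligand that signals through gp130, lies beside Lif on chromosome 11 with no protein-coding gene between them. It stood at 31.0, 32.7 and 28.9 CPM in STAT3+ CM, against 30.2, 34.3 and 25.5 CPM in STAT3- CM. The STAT3+ CM values all lay inside the range of STAT3- CM, and the log2 fold change was 0.04 (SE 0.14). Per kilobase of merged exons, the Lif level was 1.60, 1.51 and 1.78 times that of Osm in STAT3+ CM, against 0.934, 0.920 and 0.952 times in STAT3- CM. Lif was picked for its difference between the media, so the ratio restates that difference and is no separate result. The ratio was higher in every STAT3+ CM library than in any STAT3- CM library. Its place relative to 1 depends on the length used: with the longest transcript it was 1.73, 1.63 and 1.92 in STAT3+ CM, against 1.01, 0.994 and 1.03 in STAT3- CM.

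The genes next to this pair were read in gene order to see whether the Lif difference extended along the chromosome. On the Osm side, Castor1, a cytosolic arginine sensor, had a log2 fold change of 0.24 (SE 0.31) and Tbc1d10a, a Rab GTPase-activating protein, -0.06 (SE 0.12). On the Lif side, Hormad2, a meiotic chromosome protein, stood at 0.368 ± 0.112 CPM in STAT3+ CM and 0.281 ± 0.0912 CPM in STAT3- CM. At these low levels its log2 fold change was 0.42 (SE 0.41). Mtmr3, a lipid phosphatase, had -0.07 (SE 0.15). In all 4 neighbours the groups overlapped, as they did for Osm. Overlap was the common case, since 7.95% of all genes had groups that did not overlap. Beside Il6st on chromosome 13, Map3k1 had -0.14 (SE 0.21), while Ankrd55 and Ddx4 averaged under 0.5 CPM in each group and Il31ra had no row. Of the neighbours of Lifr and Osmr on chromosome 15, Fyb, a T cell adaptor protein, had 0.07 (SE 0.26) and Rictor, a subunit of the mTORC2 kinase complex, -0.27 (SE 0.15), and Egflam and Gdnf had no row.

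**Figure D2:**
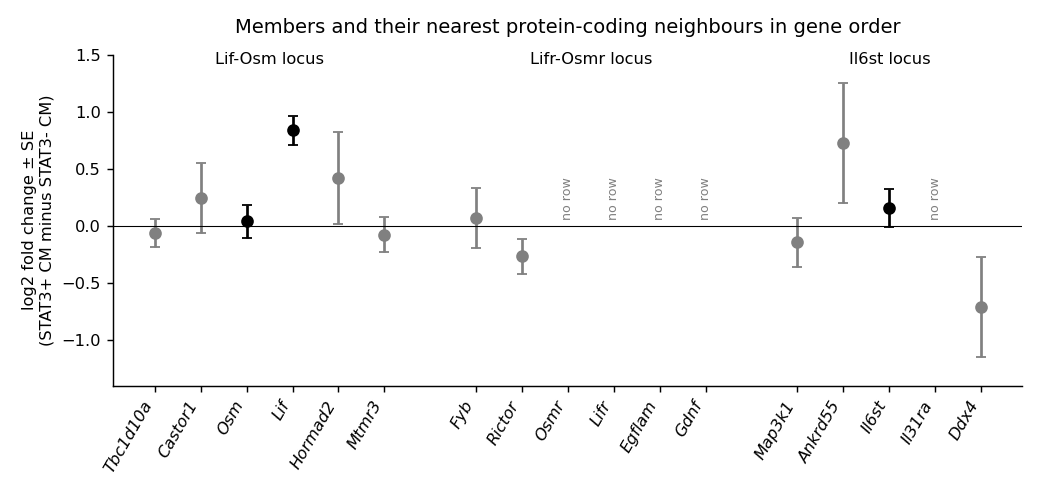
Log2 fold change ± SE (y axis, STAT3+ CM minus STAT3- CM) of members (black) and their nearest protein-coding neighbours (grey), placed in gene order with equal spacing along the x axis. Lif stands at 0.84 and its neighbour Osm at 0.04, and genes marked "no row" were not in the deposited table.

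Il6st, the shared signalling chain gp130, differed less between the media than between libraries. It stood at 42.8, 30.6 and 37.7 CPM in STAT3+ CM, against 35.3, 27.4 and 37.2 CPM in STAT3- CM. The groups overlapped, and replicate 2 was the lowest library of each. The log2 fold change was 0.16 (SE 0.17).

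Il6ra, the interleukin 6 binding chain, was the scarcest of the 7 and 1 library stood apart in it. It stood at 5.60, 6.82 and 4.84 CPM in STAT3+ CM, against 10.1, 3.96 and 3.25 CPM in STAT3- CM. STAT3- CM replicate 1 lay above and the other STAT3- CM libraries below all of STAT3+ CM, so the means were close, at 5.75 ± 1.00 CPM in STAT3+ CM and 5.78 ± 3.79 CPM in STAT3- CM (SD, n = 3 each). The log2 fold change was -0.01 (SE 0.39) with all libraries and 0.67 (SE 0.27) without STAT3- CM replicate 1. Markers of macrophages and monocytes, which also carry this receptor, summed to 5.01 CPM in STAT3- CM replicate 1 and to 3.70 and 10.3 CPM in STAT3- CM replicates 2 and 3. Only 4 of 12 such markers had a row, and the part of these cells in the Il6ra values was not tested.

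Il27ra, the interleukin 27 chain that pairs with gp130, was the steadiest member. It stood at 76.7, 76.1 and 71.2 CPM in STAT3+ CM, against 75.7, 73.2 and 70.4 CPM in STAT3- CM, so the groups overlapped within a narrow band. Its log2 fold change was 0.03 (SE 0.11). The SD of its log2 CPM within groups, 0.06, lay at percentile 1.29 of all genes tested, where the median gene had 0.22.

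Il12rb1, the chain shared by the receptors for interleukins 12 and 23, stood at 69.8, 80.6 and 82.7 CPM in STAT3+ CM, against 77.6, 69.7 and 61.9 CPM in STAT3- CM. The groups overlapped, with a log2 fold change of 0.16 (SE 0.13). Its partner Il12rb2, which carries the interleukin 12 signal to STAT4, was far less even. It stood at 149, 49.0 and 79.9 CPM in STAT3+ CM, against 46.3, 67.5 and 199 CPM in STAT3- CM.

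The highest Il12rb2 libraries were STAT3- CM replicate 3 and STAT3+ CM replicate 1, 1 from each medium, and the groups overlapped widely. Its within-group SD of log2 CPM was 0.96, at percentile 99.0 of all genes tested, while that of Il12rb1 was 0.15, at percentile 25.3. The log2 fold change was -0.17 (SE 0.54) with all libraries, 0.70 (SE 0.39) without STAT3- CM replicate 3 and -0.69 (SE 0.60) without STAT3+ CM replicate 1. From highest to lowest Il12rb2, the 6 libraries stood in the same order as along the first principal component of all genes, of which Il12rb2 is 1. Per kilobase, the Il12rb2 level was 2.31, 0.658 and 1.05 times that of Il12rb1 in STAT3+ CM, against 0.645, 1.05 and 3.47 times in STAT3- CM. Where Il12rb2 was highest, in STAT3- CM replicate 3, Il12rb1 had its lowest value.

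Genes tied to interleukin 12 signalling did not all follow Il12rb2 from library to library. Stat4, the factor that the receptor activates, stood at 165, 125 and 146 CPM in STAT3+ CM, against 101, 134 and 171 CPM in STAT3- CM, and was also highest in STAT3- CM replicate 3 and STAT3+ CM replicate 1. Tbx21, the type 1 master regulator T-bet, stood at 66.0, 92.1 and 90.5 CPM in STAT3+ CM, against 63.2, 72.5 and 50.6 CPM in STAT3- CM. Ifng, the cytokine that interleukin 12 is best known to raise, stood at 1042, 1037 and 991 CPM in STAT3+ CM, against 1151, 852 and 742 CPM in STAT3- CM. Both Tbx21 and Ifng were lowest in STAT3- CM replicate 3, the library with the most Il12rb2. Il18r1, an interleukin 18 receptor chain, shared its highest library with Il12rb2, STAT3- CM replicate 3, at 81.9 CPM. STAT3+ CM replicate 1 came next at 52.9 CPM. That was close to the 52.1 and 51.1 CPM in STAT3- CM replicates 1 and 2, of which replicate 1 had the least Il12rb2. Stat4 and Ifng were named after their values were seen.

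Levels of different genes were compared per kilobase of merged exons. In STAT3+ CM the means were 24.4 ± 13.5 CPM per kb for Il12rb2, 22.0 ± 0.514 for Lif, 21.4 ± 0.869 for Il27ra and 18.9 ± 1.69 for Il12rb1. They were 13.6 ± 0.840 CPM per kb for Osm, 3.34 ± 0.550 for Il6st and 0.666 ± 0.116 for Il6ra (SD, n = 3 each). In STAT3- CM the means were 27.4 ± 21.7 CPM per kb for Il12rb2, 20.9 ± 0.756 for Il27ra, 17.0 ± 1.91 for Il12rb1 and 13.2 ± 1.94 for Osm. Lif had 12.3 ± 1.60 CPM per kb there, Il6st 3.00 ± 0.471 and Il6ra 0.669 ± 0.438 (SD, n = 3 each).

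The lower end of this order was the same in every library: Osm lay above Il6st, and Il6st above Il6ra, in 6 of 6. The shared chain gp130 was also lower per length than its partner Il27ra, by 5.69 to 8.49 times over the 6 libraries. With the longest transcript as length the range was 5.31 to 7.92 times. The upper end was less certain. Il12rb2 lay above Il27ra in 3 of 6 libraries, so their order does not exceed the spread. Il27ra lay above Il12rb1 in 6 of 6, but their mean order turned round when the longest transcript gave the length. Lif lay above both Il12rb1 and Osm in 3 of 3 STAT3+ CM libraries and in 0 of 3 STAT3- CM libraries. This order was lost with the longest transcript as length: Lif then lay above Il12rb1 in 0 of 3 libraries of either medium, and above Osm in 3 of 3 STAT3+ CM and 2 of 3 STAT3- CM libraries. The place of Lif among Il27ra, Il12rb1 and, in STAT3- CM, Osm is therefore not settled.

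**Figure D3:**
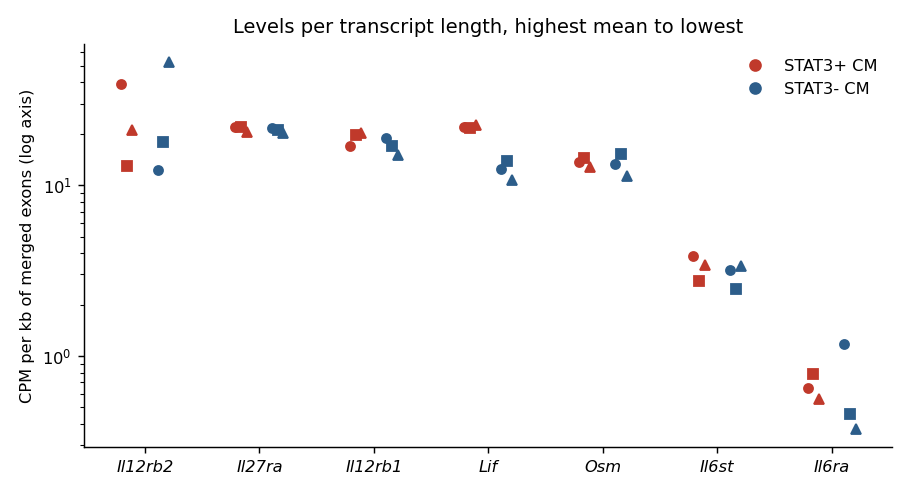
CPM per kilobase of merged exons (log y axis) of the 7 measured genes, ordered by their mean over 6 libraries, each point a library, with STAT3+ CM left of STAT3- CM and marker shapes for replicates. Il6st and Il6ra lie below the other genes in all 6 libraries, and Lif lies near Il27ra and Il12rb1 in STAT3+ CM and near Osm in STAT3- CM.

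Genes whose profile over the 6 libraries was nearest to each member were found by root-mean-square distance between log2 CPM centred on their means, among 10788 genes. For Lif the nearest were Fam78b, Zfp459 and Fbxo17, at distances of 0.154, 0.173 and 0.174, where the Lif profile itself had a root-mean-square of 0.437. Fam78b stood at 5.07 ± 0.442 CPM in STAT3+ CM and 3.24 ± 0.834 CPM in STAT3- CM (SD, n = 3 each), and none of the 3 was as abundant as Lif. For Il12rb2 they were Gnal, a G protein subunit, Apold1 and Tuba8, an alpha-tubulin, at 0.103, 0.116 and 0.163 against 0.782 for Il12rb2 itself. By this choice these also had their highest values in STAT3- CM replicate 3 and STAT3+ CM replicate 1, at 3.62 and 2.71 CPM for Gnal.

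The remaining members had other companions. Il6ra was nearest to Vipr1, a receptor for vasoactive intestinal peptide, Tmem140 and Maff, which also peaked in STAT3- CM replicate 1, at 7.81 CPM for Vipr1. Osm was nearest to Pbdc1, Stip1 and the cyclophilin gene Ppia, at distances of 0.0247 to 0.0290. Il6st was nearest to Ehd3, Zfp128 and Chst14, Il27ra to Capn1, Yipf3 and Spast, and Il12rb1 to Lmbrd1, Alg3 and Wsb2. In each of these the groups overlapped. All distances describe 6 shared libraries and no test was made of them. Companions share the pattern of a member because they were picked for it.

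**Figure D4:**
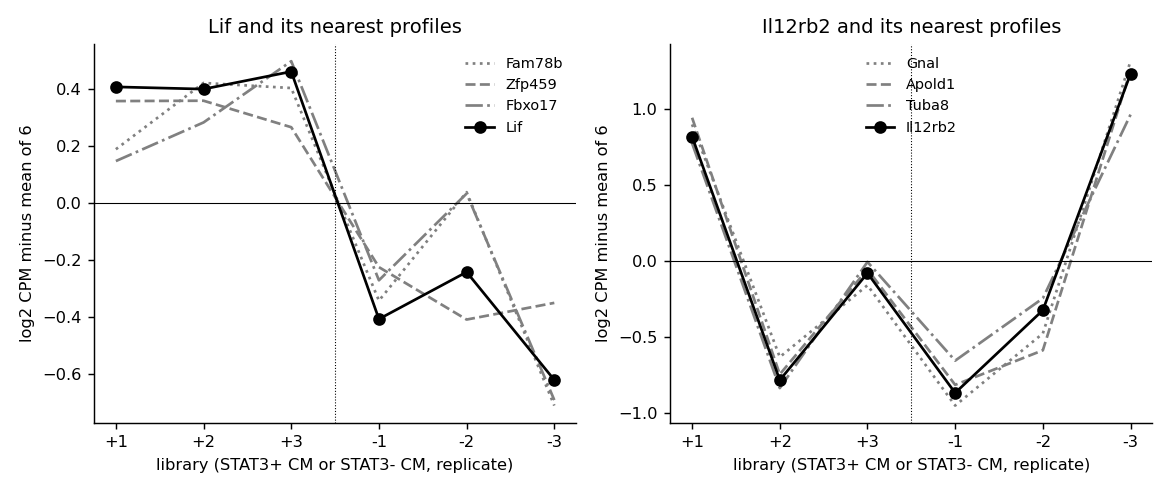
Log2 CPM minus its mean over the 6 libraries (y axis) for Lif and Il12rb2 (black) and the 3 genes nearest to each (grey), with STAT3+ CM libraries left of the dotted line and STAT3- CM right of it. Lif splits by medium, and Il12rb2 peaks in STAT3+ CM replicate 1 and STAT3- CM replicate 3. The companions share these patterns because they were picked for nearness to them.

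Other genes of the pathway came from 8 lists of 91 genes, of which 76 had a row and were tested. None passed by edgeR (0 of 76), and none was called by DESeq2 or limma-voom. At an unadjusted p under 0.05 stood 9 of the 76, or 11.8%, beside 3.64% of all genes, and the groups did not overlap in 10, or 13.2%, beside 7.95% of all genes. Positive values numbered 36 of 76, beside 50.2% of all genes, and the median log2 fold change was -0.05, beside 0.00 for all genes. The genes were picked from known pathways with results of these data in view, and lists share some members.

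Few other ligands of the family had a row. Of 13, these were Il23a, Clcf1, Ebi3 and Il11, while Il6, Il27, Il12a and Il12b were among the 9 without. Ebi3, the subunit that interleukin 27 shares with interleukin 35, stood at 2.57 ± 0.225 CPM in STAT3+ CM and 3.15 ± 0.181 CPM in STAT3- CM (SD, n = 3 each), with no overlap between the groups. Its difference on the log2 scale was -0.29 (SE 0.22), with an edgeR adjusted p of 0.989. Ebi3 was the 1 gene of the 4 tested whose groups did not overlap, beside 7.95% of all genes. Il23a, the p19 subunit of interleukin 23, had 0.41 (SE 0.37), Clcf1, a cytokine of the ciliary neurotrophic factor receptor, -0.19 (SE 0.20), and Il11 stayed under 1 CPM in every library. Of the 4 other receptors, Il11ra1 had a row, at 2.11 ± 0.156 CPM in STAT3+ CM and 1.60 ± 0.458 CPM in STAT3- CM (SD, n = 3 each).

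Among 14 signal transducers tested, 5 values were positive and 9 negative, with a median of -0.10. Jak2, a kinase bound to gp130 and IL12RB2, stood at 147, 162 and 206 CPM in STAT3+ CM, against 243, 197 and 214 CPM in STAT3- CM. The groups overlapped through STAT3+ CM replicate 3, and the log2 difference was -0.34 (SE 0.15) with an edgeR adjusted p of 0.989. Sos1, an activator of Ras, had -0.20 (SE 0.18) and the kinase Tyk2 -0.15 (SE 0.14), both with overlapping groups. Stat3, the main factor downstream of gp130, stood at 311, 198 and 272 CPM in STAT3+ CM, against 203, 240 and 426 CPM in STAT3- CM. Its highest library, STAT3- CM replicate 3, was also the highest for Il12rb2.

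Feedback inhibitors, phosphatases and sheddases gave 4 positive and 6 negative values of 10, with a median of -0.06. Socs3, the inhibitor that binds gp130 and is induced by STAT3, stood at 31.1, 25.0 and 17.4 CPM in STAT3+ CM, against 19.1, 14.1 and 25.6 CPM in STAT3- CM, and the groups overlapped. The log2 difference of Socs3 was 0.32 (SE 0.25), and the edgeR adjusted p was 0.989. Socs1 had 0.25 (SE 0.16), Pias3, an inhibitor of STAT3, -0.26 (SE 0.18), and Adam17, a protease that sheds the interleukin 6 receptor, -0.15 (SE 0.13). Pias3 was the 1 gene of the 10 whose groups did not overlap, beside 7.95% of all genes.

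STAT3 target genes were split, with 10 positive and 9 negative values of 19 and a median of 0.03. Rora, a nuclear receptor, stood at 4.21, 3.89 and 4.64 CPM in STAT3+ CM, against 7.57, 5.19 and 8.75 CPM in STAT3- CM. Its groups did not overlap, and the log2 difference was -0.75 (SE 0.23) with an edgeR adjusted p of 0.983. Maf had -1.18 (SE 0.57) at levels under 1 CPM, and Myc 0.21 (SE 0.11) with no overlap between the groups. In all, 3 of the 19 genes had groups that did not overlap, in both directions, beside 7.95% of all genes.

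Interleukin 12 response genes gave 9 positive and 3 negative values of 12, with a median of 0.10. Gadd45g, a stress-response gene that promotes interferon gamma production, stood at 77.4, 80.3 and 74.6 CPM in STAT3+ CM, against 47.1, 68.6 and 54.3 CPM in STAT3- CM. The log2 difference was 0.45 (SE 0.15), with an edgeR adjusted p of 0.989. Its groups did not overlap, nor did those of the pore-forming perforin gene Prf1 (0.60, SE 0.20) and, on the lower side in STAT3+ CM, of the interleukin 18 receptor chain Il18rap (-0.43, SE 0.15). Its partner chain Il18r1 had -0.62 (SE 0.23). The groups overlapped for Il18r1 through STAT3+ CM replicate 1. Gzmb, which encodes the cytotoxic protease granzyme B, also had no overlap, at 7211, 6172 and 7188 CPM in STAT3+ CM, against 3755, 5451 and 6129 CPM in STAT3- CM. In all, 4 of the 12 genes had groups that did not overlap, in both directions, beside 7.95% of all genes. No gene of the list passed.

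Interleukin 27 response genes gave 7 positive and 7 negative values of 14, with a median of -0.09. Ahr, the aryl hydrocarbon receptor, stood at 2.08 ± 0.313 CPM in STAT3+ CM and 3.29 ± 0.749 CPM in STAT3- CM (SD, n = 3 each), with no overlap. The log2 difference of Ahr was -0.65 (SE 0.26), and its edgeR adjusted p was 0.989. Ahr was the 1 gene of the 14 whose groups did not overlap, beside 7.95% of all genes. Tbx21 had 0.42 (SE 0.17) and the inhibitory receptor gene Havcr2 -0.42 (SE 0.22), both with overlapping groups. Factors that control decay of cytokine mRNA gave 5 positive and 5 negative values of 10, with a median of 0.00. Zfp36, which encodes the AU-rich element binding protein tristetraprolin, had 0.27 (SE 0.14), Zfp36l1 -0.18 (SE 0.16), and Rc3h2 and Rc3h1, the Roquin genes, -0.17 (SE 0.16) and -0.11 (SE 0.17).

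**Figure D5:**
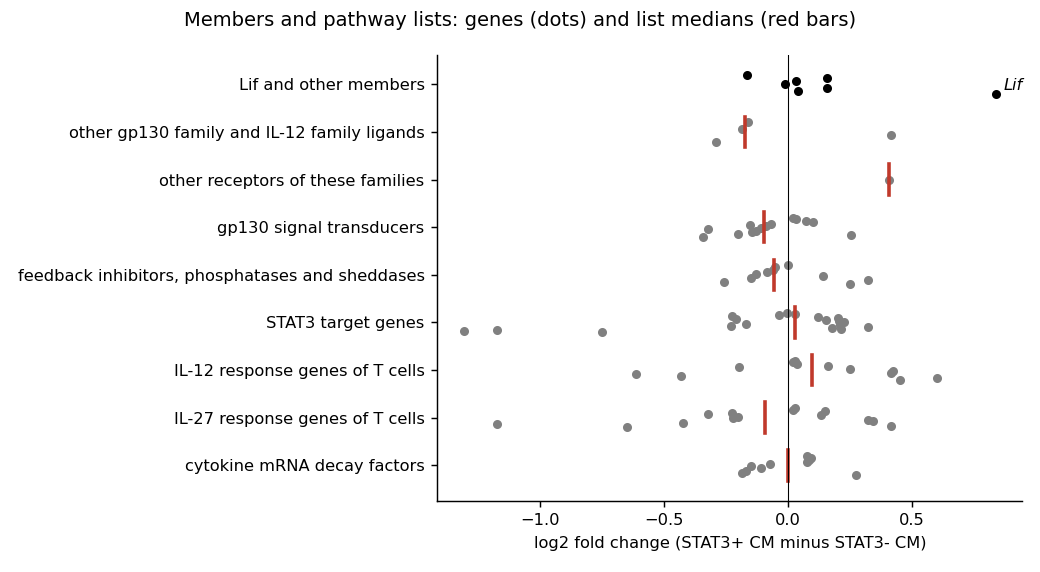
Log2 fold changes (x axis, STAT3+ CM minus STAT3- CM) of the 7 measured members (black) and of the genes in each pathway list (grey), 1 row per list, with red bars at list medians. Lif lies at 0.84, to the right of every pathway gene tested, of which Prf1 comes nearest at 0.60, and the list medians other than that of the 1 receptor tested lie between -0.17 and 0.10.

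Markers of other cell types that could supply these transcripts were read in the same libraries. Dendritic cell markers, with 7 of 12 in the table, summed to 95.3 to 119.9 CPM in STAT3+ CM and to 132 to 185 CPM in STAT3- CM. These sums did not overlap, and 1 of the 7 log2 fold changes was positive and 6 were negative. Among all single genes tested, 7.95% had groups that did not overlap. The 7 summed were Itgax, Zbtb46, H2-Aa, H2-Ab1, H2-Eb1, Cd74 and Batf3, while Flt3, Clec9a, Xcr1, Siglech and Cd209a had no row. Macrophage and monocyte markers, with 4 of 12 in the table, summed to 3.63 to 5.60 CPM in STAT3+ CM and 3.70 to 10.3 CPM in STAT3- CM, and Csf1r, Itgam and C1qa had no row. Of 6 B cell markers 1, Cd79b, had a row, at 10.9 to 11.8 CPM in STAT3+ CM and 7.40 to 10.7 CPM in STAT3- CM, also with no overlap. Astrocyte and glial markers, with 3 of 8 in the table, summed to 9.85 to 19.4 CPM in STAT3+ CM and 15.4 to 18.7 CPM in STAT3- CM, and Gfap, Aqp4 and S100b had no row. NK cell, CD4 T cell and fibroblast markers overlapped between the groups, and none of 4 endothelial markers had a row. The part of the dendritic and B cell markers in the Lif difference was not tested.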

How the data were processed

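The authors deposited 1 table of raw read counts by gene, with a column for each library, from polyadenylated RNA in directional libraries. The submitters' processing notes name build GRCm39 and, with no role, Cufflinks 2.2.1, SAMtools 0.1.19, Bowtie 1.0.0, TopHat2 2.0.10 and FastQC. Not given in the sources used here are the counting program, its annotation, strand setting and gene filter, so genes that overlap others are less certain. The lowest gene total was 40 reads.

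Counts were filtered with filterByExpr, which left out 162 genes, and tested over 14319 genes with TMM scaling in edgeR 4.0.16 under R 4.3.3 (quasi-likelihood F test, robust, two-sided). P-values measure the spread between libraries, which may be technical. No pair of libraries of a group agreed within sampling noise: the chi-square per gene ran from 21.5 to 83.7. Log2 CPM used a prior count of 2. Lengths came from GENCODE M21 and gene order and promoters from RefSeq, both on GRCm38, matched by symbol. The workflow was checked on simulated data. Alternatives were other scalings, filters, DESeq2 1.42.0, limma 3.58.1, the older quasi-likelihood method, a replicate block and each library left out.

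The members and lists were chosen with earlier results of these data known. Named genes were all members, the 4 genes of each list with the smallest p, the 3 nearest profiles per member and up to 2 neighbours on each side of 3 loci. Of the other pathway genes, Gzmb, Ifng, Stat3 and Stat4 were named after their values were seen. A few genes that this rule names are not reported here.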

Additional observations from a re-analysis of the deposited data

How the results depend on the processing

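Lif kept its direction in all 17 alternatives, with log2 fold changes of 0.74 to 0.93, the lowest without STAT3- CM replicate 3 and the highest without STAT3- CM replicate 2. All alternatives used the libraries in which Lif was picked for this difference, so the kept direction adds no support to it. The count of genes called, 0 by edgeR, was 48 by DESeq2 and 14 by limma-voom with sample quality weights, and Lif was among both sets. It was 0 to 18 with 1 library left out, where 18 came without STAT3- CM replicate 3 and 1 without STAT3- CM replicate 1, and no member was among those calls. Without both STAT3- CM replicate 3 and STAT3+ CM replicate 1, chosen after seeing the data, it was 10, with Lif at 0.75 and not called. With the replicate block the count was 0 and Lif had 0.84. Libraries that share a number did not all deviate together (correlations of -0.261, 0.281 and 0.182), so the block is not taken as a pairing. The share of genes whose groups do not overlap was 11.3% to 28.1% with 1 library left out and 35.3% with both left out, as fewer libraries are compared. No pathway gene was called in any alternative. Il6ra ran from -0.30 to 0.67 and Il12rb2 from -0.69 to 0.70, so neither has a stable direction, and the signs of Osm and Il27ra, near 0, also turned in some alternatives, library totals only among them. Il6st and Il12rb1 stayed positive. With the longest transcript as length, Il27ra and Il12rb1 changed places in the order of mean levels. In STAT3+ CM the mean of Lif was then below both (23.8 against 25.5 and 27.0 CPM per kb) where it had been above both, and in STAT3- CM it was 13.3 beside 13.2 for Osm, where it had been below. The 21 nearest genes were the same with a prior count of 0.5. Genes without a row give no upper limit on their level, and strand and paralogue assignment could not be checked.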
